A study of Mus musculus with 8 samples.

Results

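Wnt ligands, their receptors and their inhibitors were followed through mouse skin epithelium that had lost the histone acetyltransferase MOF or its partner Kansl1. The group was taken by gene symbol: every symbol that begins with Wnt, Fzd, Sfrp or Dkk followed by a digit, together with the ligand secretion genes Porcn and Wls, the coreceptors Lrp5 and Lrp6, the R-spondin receptors Lgr4, Lgr5 and Lgr6, the ligases Rnf43 and Znrf3, the scaffolds Axin1 and Axin2, and Ctnnb1, Lef1, Tcf7, Tcf7l1 and Tcf7l2 in the nucleus. The rule found 53 of the 23432 genes in the count tables, and no measured value entered it. The genes were sorted into 8 roles: 19 ligands, 2 ligand secretion genes, 10 Frizzled receptors, 2 LRP coreceptors, 5 R-spondin receptors and ligases, 8 secreted inhibitors, 2 Axin scaffolds, and 5 genes for beta-catenin and the TCF/LEF factors.

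Polyadenylated RNA was sequenced from 4 groups of 2 libraries each, 8 libraries in all. At stage E16.5, before birth, epithelial cells carrying the K14-H2BGFP reporter were sorted by flow cytometry from back skin of Control embryos and of MOFfl/fl/K14Cre embryos (MOF cKO). At stage P0.5, just after birth, epidermis was lifted off with Dispase and floated on TRIzol, from Control pups and from Kansl1fl/fl/K14Cre pups (Kansl1 cKO). In both mutants the Cre is driven by Krt14, so deletion was limited to Krt14-expressing epithelium and its descendants, and the mice were of mixed C57Bl/6J and CD-1 background. The Kansl1 allele loses exon 3, and Controls were wild-type or heterozygous littermates. Each mutant was compared with the Control of its own experiment, because stage, isolation and sequencer all differ between the experiments and cannot be told apart. Replicates are separate GEO samples, and since the labels do not say which embryos or litters they came from, p-values measure the spread between these libraries. The study describes 2 pairs of samples in each experiment, but the labels do not say which libraries form a pair. The main test was unpaired, and the replicate number as a block was among the alternatives.

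Wnt ligands are lipid-modified by Porcn, carried out of the cell by Wls, and bound at the surface of the receiving cell by a Frizzled receptor with Lrp5 or Lrp6. Without ligand, a complex built on Axin sends beta-catenin to degradation; with ligand, beta-catenin accumulates and works with Lef1 and the Tcf factors on target genes. Rnf43 and Znrf3 remove Frizzled receptors from the membrane, and R-spondins bound to Lgr4, Lgr5 or Lgr6 hold these ligases back. In embryonic skin, epidermal Wnt ligands and beta-catenin signalling are needed for hair follicle placodes to form.

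The E16.5 libraries held between 22484018 and 27561688 counts on genes, and the P0.5 libraries between 9108709 and 19774643. After scaling, 1 count stood for 0.0326 to 0.0502 CPM, the unit of counts brought to a common library size, at E16.5 and for 0.0484 to 0.115 CPM at P0.5. The targeted genes did not check the labels, because counts of a whole gene do not separate deleted from remaining exons. Kat8, which encodes MOF, was at 14.6 ± 0.199 CPM (SD, n = 2) in E16.5 Control and 13.2 ± 1.05 CPM in MOF cKO. Kansl1 was at 44.4 ± 5.30 CPM in P0.5 Control and 31.0 ± 0.600 CPM in Kansl1 cKO. The 7 basal keratinocyte markers (Krt5, Krt14 and others) summed to between 31280 and 38460 CPM at E16.5 and between 17580 and 19530 CPM at P0.5. Keratinocyte RNA was thus present in every library, but so was RNA of other cells, whose markers are given below. P0.5 Control replicate 1 stood apart in skeletal muscle genes, with 160.4 CPM over 5 markers against 1.58 to 3.43 CPM in the other P0.5 libraries.

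Among the 53 genes, beta-catenin itself was the most abundant in E16.5 Control, followed by epidermal ligands. Levels between genes are given as CPM per kilobase of exon, since longer genes collect more reads. Ctnnb1 was at 476 ± 0.353 CPM per kb (SD, n = 2). Wnt4 followed at 97.0 ± 0.270 CPM per kb and Wnt6 at 84.6 ± 5.94 CPM per kb. Fzd10, the leading Frizzled receptor, was at 61.9 ± 5.20 CPM per kb, ahead of the ligand Wnt10b at 42.2 ± 2.80 CPM per kb. Among themselves these 5 genes kept their order in both Control libraries, but in replicate 1 Wls (40.7 CPM per kb) and Wnt3 (40.5) lay just above Wnt10b (40.2). The next in order lay closer together: the ranges of Wnt3 (37.5 ± 4.31 CPM per kb) and the secretion gene Wls (36.2 ± 6.36 CPM per kb) overlapped, as did those of Wnt7b and Lgr4 at 27.1 ± 0.129 and 27.0 ± 1.07 CPM per kb. The 19 ligands together summed to 354 and 338 CPM per kb in the Control libraries. Wnt4 supplied 28.1% ± 0.963 of that sum, Wnt6 24.5% ± 0.947, Wnt10b 12.2% ± 1.19, Wnt3 10.8% ± 0.906 and Wnt7b 7.83% ± 0.210.

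In P0.5 Control the same gene led, with Ctnnb1 at 259 ± 38.1 CPM per kb, and Fzd10 came next at 44.6 ± 6.61 CPM per kb. Wnt4, Wnt6, Wls and Wnt7b followed at 35.1 ± 7.88, 27.5 ± 1.76, 27.5 ± 3.53 and 24.3 ± 2.16 CPM per kb, and neighbours among these 4 differed by less than the larger of their SDs. Dkk4, a secreted inhibitor made by hair placodes, took rank 25 of 53 in E16.5 Control at 9.0 ± 0.570 CPM per kb and rank 37 in P0.5 Control at 0.777 ± 0.360 CPM per kb. Levels at the 2 stages were scaled separately and were not tested against each other. Several genes were at or near 0 throughout: Wnt8b had no count in any library, and Dkk1, Sfrp4, Wnt1, Wnt2 and Wnt8a ranged from 0 to 9, 0 to 5, 0 to 6, 0 to 13 and 0 to 11 counts. These 6 genes did not pass edgeR's filter on low counts in either experiment and were not tested.

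**Figure D1:**
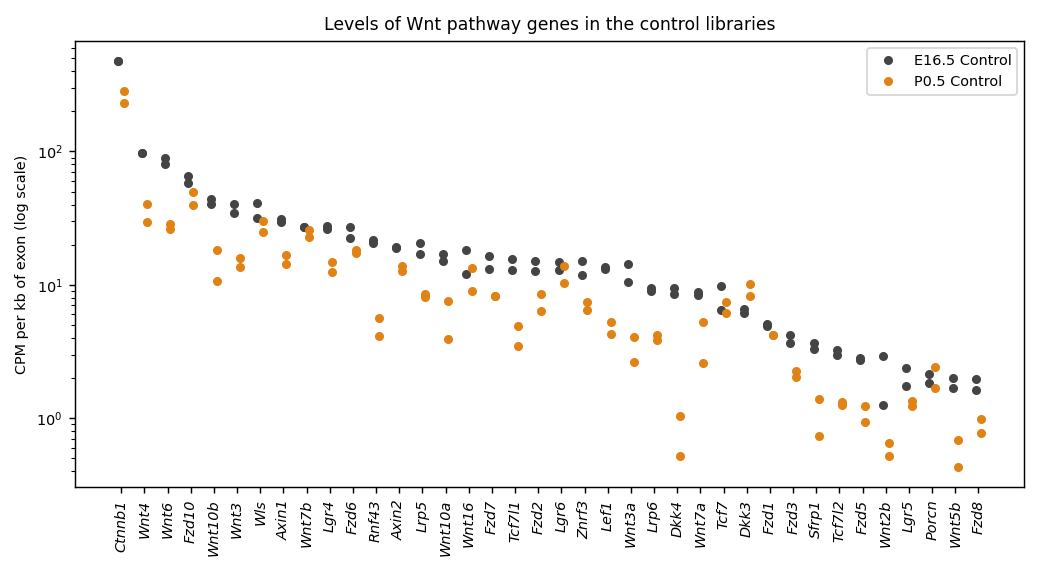
Level in CPM per kb of exon (log scale) of each gene of the group with a mean of at least 1 CPM per kb in E16.5 Control, ordered by that mean; each point is 1 of 2 libraries per stage. Ctnnb1 lies at 476 CPM per kb on average at E16.5, and Dkk4 shows a wide gap between the stages, 9.0 against 0.777 CPM per kb.

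The first comparison asks how the Wnt genes stand in MOF cKO epithelium. In MOF cKO the R-spondin receptors Lgr5, Lgr4 and Lgr6 fell, as did the ligand Wnt2b and the transcription factor Tcf7, and the secreted inhibitor Sfrp2 rose. Calls came from edgeR's quasi-likelihood test, fitted on all genes that passed the filter, and needed a fold change over 1.5 together with a Benjamini-Hochberg adjusted p no higher than 0.01. Of the 47 genes of the group that were tested, 5 were called down (9.59% of all 13956 genes tested were) and 1 was called up (10% of all). Read against 19.6% of all genes called in either direction, 6 of 47 is a lower share. The median log2 fold change of the 47 genes was -0.163, beside -0.0197 over all genes tested, and 31 of the 47 were lower in MOF cKO, where 50.9% of all genes were. At an unadjusted p under 0.05 there were 23 of the 47, beside 48.9% of all genes tested. Control was above MOF cKO in every library for 25 of the 47 genes, where 37.7% of all genes tested did so, and below it for 10, where 34.9% of all did. In tissue of mixed cells, fewer cells of a type and less RNA per cell cannot be told apart. DESeq2 on the same counts called 6 of the genes down (Lgr5, Lgr4, Wnt2b, Tcf7, Dkk4 and Wnt16; 11.7% of all genes it tested were called down) and 2 up (Sfrp2 and Wnt9a; 12% of all).

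**Figure D2:**
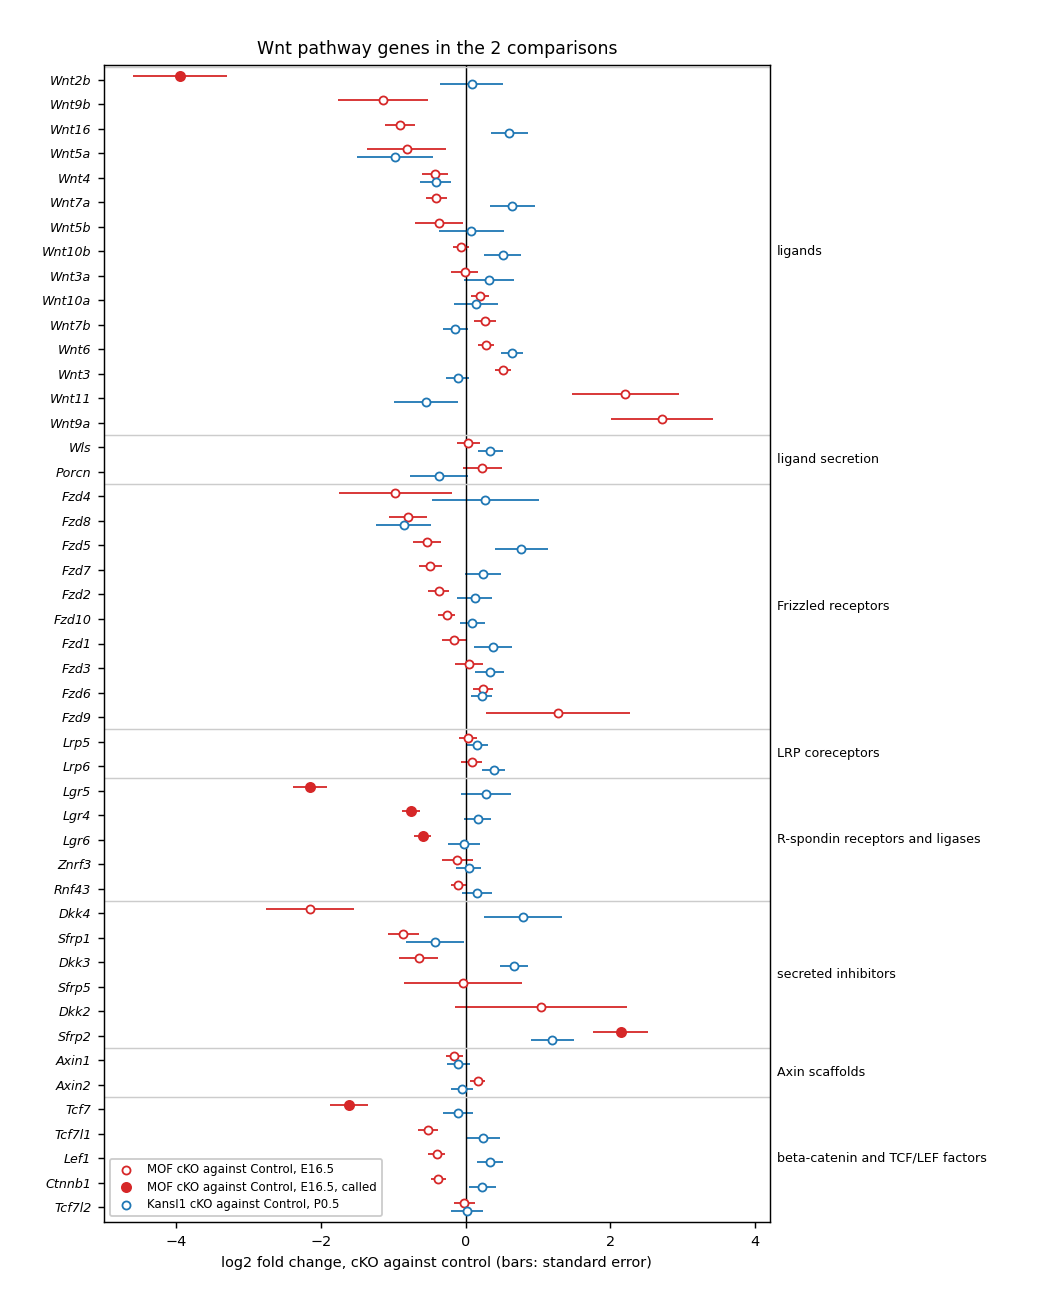
Log2 fold change of cKO against Control for every gene of the group tested in at least 1 experiment, grouped by role, with bars for the SE; filled symbols mark genes called by edgeR's quasi-likelihood test, and no Kansl1 cKO symbol is filled. Called genes in MOF cKO run from -3.96 for Wnt2b to 2.14 for Sfrp2, and all 5 tested genes among the R-spondin receptors and ligases lie left of 0.

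For 4 of the 6 called genes, the RefSeq table of GRCm38.p6 promoters held exactly 1 start, and their windows, from 250 bases before the start to 50 after it, are shown to compare the Lgr pair that fell together with Wnt2b and Sfrp2. Each is written 5′ to 3′ on the gene's strand, with the dinucleotide CG in capitals.
Lgr4, chr2:109917397-109917696, plus strand: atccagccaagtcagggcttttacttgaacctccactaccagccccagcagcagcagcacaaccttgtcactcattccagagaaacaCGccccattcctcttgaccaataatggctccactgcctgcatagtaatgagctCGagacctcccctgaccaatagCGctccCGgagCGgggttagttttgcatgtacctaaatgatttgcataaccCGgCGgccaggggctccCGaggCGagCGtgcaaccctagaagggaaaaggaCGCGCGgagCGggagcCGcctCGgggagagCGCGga
Lgr6, chr1:135105227-135105526, minus strand: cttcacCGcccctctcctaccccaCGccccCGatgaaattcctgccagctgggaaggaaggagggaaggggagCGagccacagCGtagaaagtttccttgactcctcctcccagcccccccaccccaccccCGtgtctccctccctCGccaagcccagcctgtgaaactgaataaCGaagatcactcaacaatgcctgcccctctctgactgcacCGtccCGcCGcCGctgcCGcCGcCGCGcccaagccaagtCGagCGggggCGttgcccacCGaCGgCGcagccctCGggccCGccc
Wnt2b, chr3:104961660-104961959, minus strand: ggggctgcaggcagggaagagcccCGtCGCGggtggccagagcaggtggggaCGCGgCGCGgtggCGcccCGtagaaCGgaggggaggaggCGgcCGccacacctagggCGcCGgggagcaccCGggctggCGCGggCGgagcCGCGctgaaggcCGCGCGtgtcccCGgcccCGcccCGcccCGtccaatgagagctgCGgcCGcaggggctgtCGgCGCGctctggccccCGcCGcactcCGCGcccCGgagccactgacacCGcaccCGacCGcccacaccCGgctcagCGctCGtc
Sfrp2, chr3:83766071-83766370, plus strand: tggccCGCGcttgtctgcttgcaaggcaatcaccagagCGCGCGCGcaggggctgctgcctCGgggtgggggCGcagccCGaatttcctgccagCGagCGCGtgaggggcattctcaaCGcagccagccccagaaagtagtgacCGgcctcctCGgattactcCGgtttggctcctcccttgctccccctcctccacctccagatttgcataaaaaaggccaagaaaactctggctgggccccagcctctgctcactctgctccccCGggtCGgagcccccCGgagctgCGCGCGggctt
The windows held 18, 24, 43 and 22 CG sites in that order, with a GC content of 58.3%, 67.7%, 79.7% and 66.0%. Over all 32851 promoters in the table the median was 7.0 sites, 94.6% held at least 1, 29.7% held 18 or more and 2.61% held 43 or more. So the promoter of Wnt2b is among the richest in CG of all promoters. Within the group, Wnt9a (58 sites), Wnt4 (51) and Fzd10 (45), none of them called by edgeR's quasi-likelihood test, held more. Any link between CG sites and the changes in MOF cKO was not tested. The 45 promoters of the 35 genes of the group found in the table had a median of 24.0 sites. The core of the TCF/LEF motif, CTTTGA or TCAAAG as read on the other strand, was in none of the 4 windows. It was in 5 of the 45 promoters of the group (11.1%, for Dkk1, Fzd1, Lef1, Wnt11 and Wnt5b) and in 16.0% of all promoters.

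Among the R-spondin receptors, Lgr5, a marker of follicle stem cells and their embryonic precursors, is at chr10:115450311-115587780 of mm10, minus strand. It had 545 and 671 counts in the Control libraries and 98 and 107 in MOF cKO. These correspond to 17.8 and 24.2 CPM against 4.92 and 4.53 CPM. Both MOF cKO libraries lay far below both Control libraries, and Lgr5 fell by 2.15 on the log2 scale, 4.44-fold lower (standard error, SE, 0.231, edgeR's quasi-likelihood adjusted p = 0.000788). Lgr4, the most abundant of these receptors per length, had 163 and 154 CPM in Control against 102 and 86.1 CPM in MOF cKO. It fell by 0.76 on the log2 scale (SE 0.120, adjusted p = 0.00310), with no overlap between the groups. Lgr6, which marks a separate stem cell population of the follicle and epidermis, had 87.9 and 101 CPM in Control against 63.0 and 62.1 CPM in MOF cKO. Its change of -0.59 (SE 0.120, adjusted p = 0.00791) stood close to the fold threshold of 1.5. The call of Lgr6 was lost under 7 of 15 alternatives. Its fold change slipped under 1.5 with DESeq2, with DESeq2 size factors in edgeR (-0.57) and with a filter of over 1 CPM in 2 libraries (-0.58). In edgeR's quasi-likelihood test its adjusted p missed 0.01 in one fit over all 8 libraries (0.0389), without Control replicate 2 (0.0492), without MOF cKO replicate 1 (0.0184) and without MOF cKO replicate 2 (0.0194). Added up per length, the receptors Lgr4, Lgr5 and Lgr6 came to 42.8 ± 0.733 CPM per kb in Control and 25.6 ± 2.02 CPM per kb in MOF cKO. The ligases that they hold back were not called: Rnf43 was at 139 ± 5.14 CPM in Control against 129 ± 7.75 CPM in MOF cKO, and Znrf3 at 106 ± 18.2 and 98.2 ± 29.9 CPM.

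Of the 15 ligands tested, 1 was called. Wnt2b, a canonical ligand, had 162 and 341 counts in the Control libraries and 5 and 20 in MOF cKO, or 5.28 and 12.3 CPM against 0.251 and 0.846 CPM. Libraries of the same group differed from each other in both groups, yet the groups did not overlap, and Wnt2b fell by 3.96 on the log2 scale, 15.5-fold lower (SE 0.650, edgeR's quasi-likelihood adjusted p = 0.00355). Without 1 of the 4 libraries its log2 fold change ran from -5.10 to -3.23. Wnt16, a ligand of the epidermis and follicle, had 79.6 and 52.3 CPM in Control against 38.8 and 31.5 CPM in MOF cKO. The groups were apart and the log2 fold change was -0.91 (SE 0.212), which missed the threshold with edgeR's quasi-likelihood test (adjusted p = 0.0135) and passed it with DESeq2 (adjusted p = 0.000256). Without Control replicate 2 it was -1.18 and called by edgeR's quasi-likelihood test as well (adjusted p = 2.56e-05), and without Control replicate 1 it was -0.58. Wnt9a went the other way from a low level, with 8 and 16 counts in Control against 38 and 85 in MOF cKO. Its change of 2.71 on the log2 scale (SE 0.701) reached an adjusted p of 0.00319 with DESeq2 and 0.0200 with edgeR's quasi-likelihood test.

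None of the abundant ligands was called, and their summed level overlapped between the groups. The 19 ligands summed to 334 and 366 CPM per kb in MOF cKO, beside 354 and 338 CPM per kb in Control. Wnt4, the leading ligand of Control, was at 406 and 408 CPM in Control and at 242 and 363 CPM in MOF cKO, or -0.43 on the log2 scale (SE 0.181, edgeR's quasi-likelihood adjusted p = 0.0997). The MOF cKO libraries disagreed with each other about the size of this difference, and without MOF cKO replicate 2 it became -0.75 and was called (edgeR's quasi-likelihood adjusted p = 0.00499). Wnt6 was at 185 ± 13.0 CPM in Control against 226 ± 11.2 CPM in MOF cKO (edgeR's quasi-likelihood adjusted p = 0.0738), and Wnt3 at 115 ± 13.3 and 165 ± 1.31 CPM (log2 fold change 0.51, adjusted p = 0.0120). Wnt10b was at 144 ± 9.51 and 137 ± 4.91 CPM. The share of Wnt4 in the ligand sum was 28.1% ± 0.963 in Control and 20.4% ± 4.54 in MOF cKO, and Wnt6 held the largest share in MOF cKO, 29.5% ± 3.35. Some ligand genes lie side by side in the genome. On chromosome 11, Wnt3 and Wnt9b lie 24328 bases apart with log2 fold changes of 0.51 and -1.15, and Wnt3a and Wnt9a lie 16175 bases apart with -0.013 and 2.71. None of these 4 genes was called by edgeR's quasi-likelihood test. On chromosome 1, Wnt10a and Wnt6 lie 6193 bases apart with 0.19 and 0.28.

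The machinery that exports and receives ligands was called nowhere in MOF cKO. Wls, the cargo receptor for Wnt proteins, had 358 and 279 CPM in Control against 362 and 292 CPM in MOF cKO, and the groups overlapped. Porcn was at 5.97 ± 0.686 and 7.0 ± 0.320 CPM. All 10 Frizzled receptors were tested and 0 passed with edgeR's quasi-likelihood test or with DESeq2, while 4 had an unadjusted p under 0.05, all lower in MOF cKO (25.1% of all genes tested were lower at that p). Their log2 fold changes ran from -0.97 to 1.28 with a median of -0.318. Fzd10, the leading receptor per length, had 189 and 213 CPM in Control against 157 and 178 CPM in MOF cKO, which is -0.26 on the log2 scale (SE 0.117, edgeR's quasi-likelihood adjusted p = 0.117). Fzd7 was at 67.2 ± 10.4 and 47.7 ± 7.01 CPM, and Fzd8 at 10.7 ± 1.42 and 6.13 ± 1.21 CPM. The coreceptor Lrp5 had 166 and 200 CPM in Control against 179 and 194 CPM in MOF cKO, and Lrp6 was at 126 ± 4.91 and 133 ± 25.7 CPM.

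Among the 6 secreted inhibitors tested, Sfrp2 rose and the others were not called by edgeR's quasi-likelihood test. Sfrp2, a decoy that resembles the ligand-binding part of Frizzled, had 37 and 47 counts in the Control libraries and 123 and 157 in MOF cKO, or 1.21 and 1.70 CPM against 6.17 and 6.65 CPM. The groups were well apart and the rise was 2.14 on the log2 scale, 4.41-fold higher (SE 0.384, adjusted p = 0.00497). Without Control replicate 1 the adjusted p was 0.0119. Sfrp1, its relative and the main Sfrp gene of Control per length, was at 15.2 ± 1.04 CPM in Control against 8.33 ± 1.27 CPM in MOF cKO (log2 fold change -0.86, edgeR's quasi-likelihood adjusted p = 0.0161). As shares of the summed Sfrp level per kb, Sfrp2 made up 14.3% ± 2.25 in Control and 54.9% ± 1.20 in MOF cKO. An antisense gene covers 347 exon bases of Sfrp2, and whether reads were counted by strand is not given in the sources used here.

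Dkk4, which blocks the LRP coreceptors and is a known target of Wnt signalling, had 379 and 313 counts in the Control libraries and 90 and 21 in MOF cKO, or 12.4 and 11.3 CPM against 4.52 and 0.889 CPM. Both MOF cKO libraries were lower, but they differed widely from each other, and the log2 fold change of -2.15 (SE 0.610) had an adjusted p of 0.0283 with edgeR's quasi-likelihood test. DESeq2 gave an adjusted p of 0.000433. Without 1 library the log2 fold change ran from -3.73 to -1.39, and in each of these 4 fits Dkk4 was called. Dkk3, a divergent family member, was at 21.2 ± 0.992 and 13.6 ± 5.52 CPM.

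**Figure D3:**
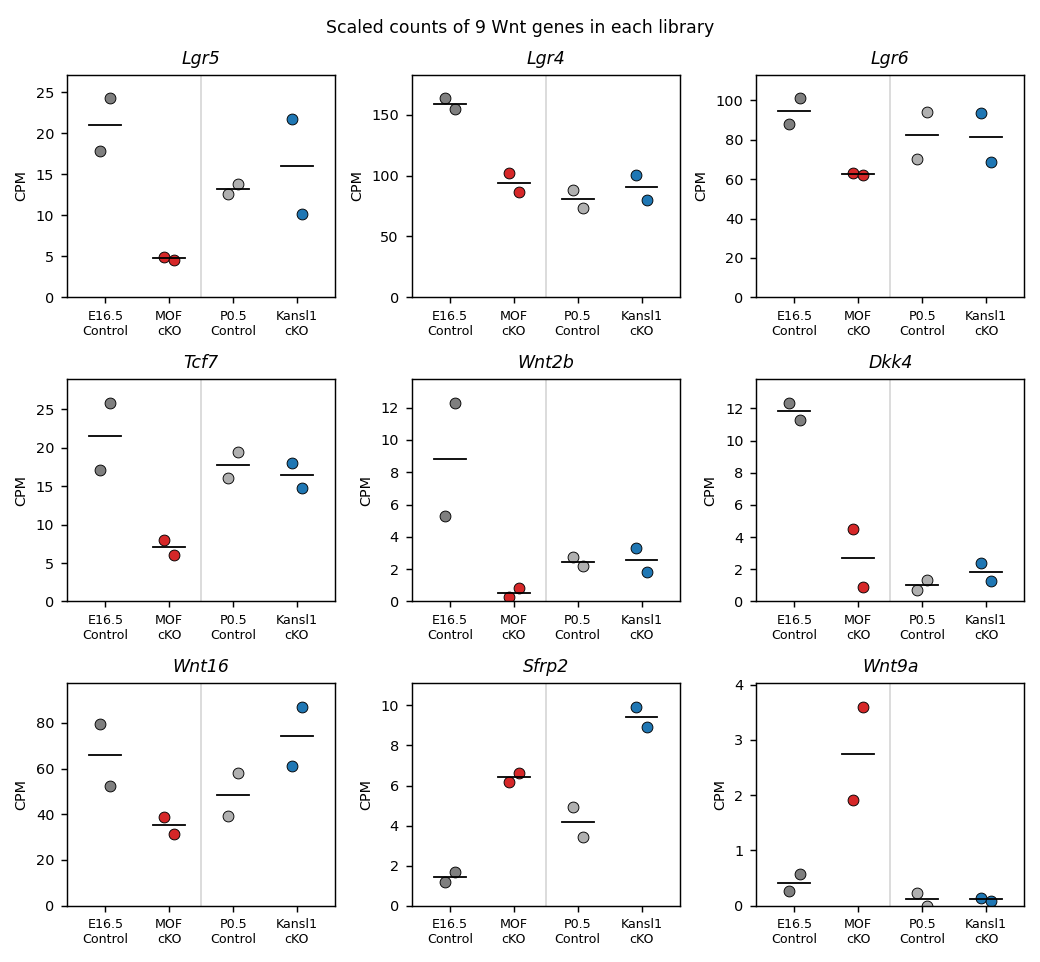
CPM in each of the 8 libraries for the 9 genes called in MOF cKO by edgeR's quasi-likelihood test or DESeq2; points are libraries, bars the mean of 2, and each vertical axis starts at 0. In every panel the MOF cKO points lie on one side of the E16.5 Control points, while the Kansl1 cKO and P0.5 Control points overlap except for Sfrp2 and Wnt16.

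Inside the cell, Tcf7 was the 1 called gene. Tcf7, a TCF factor that partners beta-catenin, is at chr11:52252371-52283014 of mm10, minus strand. It had 523 and 716 counts in the Control libraries and 159 and 143 in MOF cKO, or 17.1 and 25.8 CPM against 7.98 and 6.06 CPM. The groups did not overlap and Tcf7 fell by 1.61 on the log2 scale, 3.06-fold lower (SE 0.264, edgeR's quasi-likelihood adjusted p = 0.00348). Ctnnb1 had 2474 and 2472 CPM in Control against 2030.1 and 1770.5 CPM in MOF cKO, which is -0.38 on the log2 scale (SE 0.106, adjusted p = 0.0267). Its exons overlap those of Ulk4 on the opposite strand over 759 bases. Lef1 and Tcf7l1 were at 117 ± 2.98 and 55.9 ± 6.84 CPM in Control and at 89.0 ± 8.34 and 39.0 ± 1.43 CPM in MOF cKO, both below a fold change of 1.5. Tcf7l2 was at 27.2 ± 1.61 and 26.8 ± 2.40 CPM. Axin1, the constitutive scaffold, had 114 and 120 CPM in Control against 96.6 and 113 CPM in MOF cKO. Axin2, widely used as a readout of beta-catenin signalling, was at 104 ± 1.21 CPM in Control against 117 ± 6.38 CPM in MOF cKO, which is 0.17 on the log2 scale (SE 0.106, edgeR's quasi-likelihood adjusted p = 0.245).

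The rest of the pathway was followed in 5 lists of genes outside the group, chosen with earlier results of these data known. Their counts of called genes stand beside 9.59% called down and 10% called up over all genes tested. In the list of extracellular modulators, 12 of 18 genes were tested, 3 were called down and 1 up. Notum, an enzyme that inactivates Wnt ligands by removing their lipid, had 118 and 257 counts in Control but 1 and 10 in MOF cKO, a change of -4.70 on the log2 scale (SE 0.810, edgeR's quasi-likelihood adjusted p = 0.00426). Wif1, a secreted ligand inhibitor, fell by 1.17 on the log2 scale. The glypicans, cell surface proteoglycans that bind Wnt ligands, went in opposite directions, with Gpc3 at -1.08 and Gpc4 at 0.81. In the list of alternative receptors and planar polarity genes, 18 were tested, of which Intu, a polarity effector needed to build cilia, fell by 1.95 on the log2 scale and Prickle3, a core polarity gene, rose by 0.77. This list changed with single libraries: 3 were called down and 2 up without Control replicate 2, 2 down without MOF cKO replicate 1, and 2 up without MOF cKO replicate 2.

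Among 19 cytoplasmic transducers tested, 3 fell and 2 rose. Btrc, which marks beta-catenin for degradation, fell by 1.38 on the log2 scale, Nkd1, an inhibitor that binds Dishevelled, by 1.35, and Amer1, a membrane anchor of the destruction complex, by 0.85. Dvl1, a Dishevelled gene, rose by 0.69, and Tnks2, which promotes Axin turnover, by 0.63. Of 13 nuclear cofactors tested, Pygo1, which joins the beta-catenin complex through Bcl9 proteins, fell by 2.26 on the log2 scale, and the corepressors Tle1 and Ctbp2 rose by 0.73 and 0.61. The rises were the weaker calls: without Control replicate 1 or MOF cKO replicate 1 there were 0 cofactors and 1 transducer called up, and without Control replicate 2 there was 1 of each. Without MOF cKO replicate 2, 2 cofactors were called down.

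Of 15 target genes of beta-catenin that were tested, 4 fell and 4 rose, where 9.59% of all genes tested were called down and 10% up. Because the list was chosen with earlier results of these data known, a share above that of all genes is not independent evidence. Besides Notum and Nkd1, the falls were Bmp4, at 10.5 ± 4.34 CPM in Control against 1.69 ± 0.544 CPM in MOF cKO, and Edar, a receptor of placode cells, at 188 ± 42.3 and 82.3 ± 11.5 CPM. The rises were Sp6, Id2, the growth regulator Myc and the hyaluronan receptor Cd44, with log2 fold changes of 1.32, 1.28, 1.15 and 0.65. The median of the list was -0.458, beside -0.0197 over all genes tested. Nkd1, Notum and Apcdd1 are each in 2 of the pathway lists, and Edar is also counted among the placode markers that follow, as is the modulator Sostdc1.

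Marker genes of other cells, in lists chosen with earlier results of these data known, also differed between these libraries. Of 10 hair placode and germ markers tested, 7 were lower and 3 higher, and 3 were called down (Shh, Edar and Lhx2) and 0 up. At an unadjusted p under 0.05 in edgeR's quasi-likelihood test, 5 were lower and 1 higher. Shh, the signal that placodes send, had 43.5 and 81.0 CPM in Control against 9.94 and 10.8 CPM in MOF cKO. Lhx2, a placode transcription factor, had 91.4 and 172 CPM in Control against 9.04 and 19.9 CPM in MOF cKO. The summed level of the list was 2138 and 3020 CPM in Control against 2713 and 3708 CPM in MOF cKO, dominated by Krt17, and no marker of the list was at 0. The 4 Merkel cell markers were all lower, with a summed level of 33.7 and 33.0 CPM in Control against 3.82 and 8.0 CPM in MOF cKO, and Krt20 had no count in MOF cKO replicate 1. The 6 dermal condensate markers summed to 18.9 and 23.3 CPM in Control against 11.5 and 11.1 CPM in MOF cKO, with Prdm1 called down and Sox2 at 0 in MOF cKO replicate 1. This list was mixed: of 5 tested, 3 were lower and 2 higher. Their log2 fold changes ran from -2.53 to 3.93, and DESeq2 called 1 down and 1 up. The part of placode, Merkel and condensate cells in the falls of Lgr5, Lgr4, Lgr6, Wnt2b and Tcf7 was not tested.

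Dermal fibroblast markers were summed at 1156 and 1816 CPM in Control and at 1749 and 2373 CPM in MOF cKO. Of 9 tested, 7 were higher, 8 had an unadjusted p under 0.05 (6 of them higher), 0 were called by edgeR's quasi-likelihood test and 2 by DESeq2. No marker of the list was at 0. Macrophage markers summed to 20.5 and 45.8 CPM in Control against 103 and 133 CPM in MOF cKO, with 7 of 10 called up, and Tyrobp had no count in Control replicate 2. The Langerhans and T cell list was also higher in sum, from 0.228 and 0.397 CPM to 2.36 and 2.29 CPM, and Cd3g had no count in any E16.5 library. Of its 5 genes in the counts only 1 was tested, and 0 were called by edgeR's quasi-likelihood test and 1 by DESeq2. The part of fibroblasts, macrophages and these other immune cells in the rise of Sfrp2 was not tested. Suprabasal keratinocyte markers summed to 4227 and 3416 CPM in Control against 9239 and 10130 CPM in MOF cKO, with 5 of 7 called up, and among 7 basal markers Krt15 alone was called, down. The part of these shifts in the Wnt genes was not tested either.

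**Figure D4:**
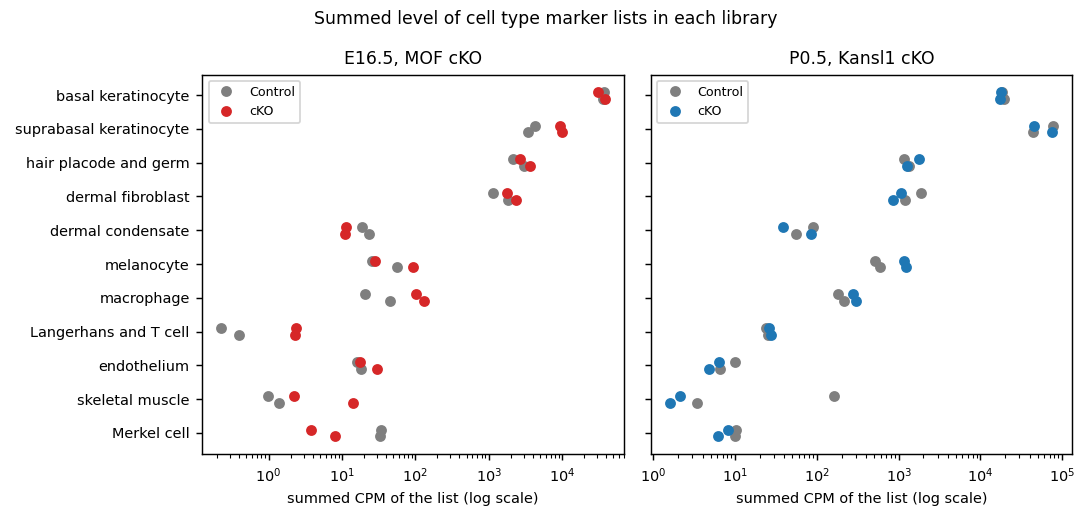
Summed CPM (log scale) of 11 lists of cell type markers in each library, with Control in grey and cKO in colour, E16.5 left and P0.5 right. At E16.5 the Merkel cell and dermal condensate lists lie lower in both MOF cKO libraries, and the macrophage, suprabasal, Langerhans and T cell, and skeletal muscle lists higher. At P0.5 the melanocyte, macrophage, and Langerhans and T cell lists lie higher in both Kansl1 cKO libraries, and the basal, dermal fibroblast, endothelium, skeletal muscle and Merkel cell lists lower.

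The second comparison asks the same of Kansl1 cKO epidermis. Under edgeR's quasi-likelihood test 0 of the 42 genes of the group that were tested were called, and 0% of all 13031 genes tested were called. DESeq2 also called 0 of the group, where it called 0.443% of all genes down and 0.282% up. At an unadjusted p under 0.05 there were 5 genes, Sfrp2, Wnt6, Dkk3, Wnt16 and Lrp6, and all were higher in Kansl1 cKO (7.43% of all genes tested were higher at that p, and 8.26% were lower). A fold change over 1.5 upward was seen in 7 of the 42, beside 7.93% of all genes tested. Of the 42 genes, 30 were higher and 12 lower (48.6% of all genes tested were lower), with a median log2 fold change of 0.162 beside 0.0123 over all genes. That median came to -0.0299 without Kansl1 cKO replicate 1 and to 0.303 without Kansl1 cKO replicate 2. Both Kansl1 cKO libraries lay above both Control libraries for 12 of the 42 genes, where 26% of all genes tested did so, and below them for 2, where 22.7% of all did. On counts simulated from these 4 libraries, the test found 88% of the 4-fold changes and 19% of the 2-fold changes. The simulation changed only genes above a set mean count and drew each gene separately, so shifts of cell types between libraries were not in it. In the real libraries the lowest adjusted p over all genes was 0.11 with edgeR's quasi-likelihood test, so the simulated shares may overstate what the test could find here.

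Sfrp2 had 43 and 53 counts in the P0.5 Control libraries and 205 and 113 in Kansl1 cKO, or 4.93 and 3.43 CPM against 9.93 and 8.93 CPM. The groups were apart, by 1.20 on the log2 scale (SE 0.293, edgeR's quasi-likelihood adjusted p = 0.204). Here 7 of 9 dermal fibroblast markers were lower, with a summed level of 1857 and 1188 CPM in Control and 1056 and 843 CPM in Kansl1 cKO. DESeq2 called 4 of them down (0.443% of all genes it tested), and edgeR's quasi-likelihood test called 0. Melanocyte markers were higher, all 8 of them, at 516 and 590.2 CPM in Control and 1151 and 1232 CPM in Kansl1 cKO. All 8 had an unadjusted p under 0.05 in edgeR's quasi-likelihood test. That test called 0 of the 8, and DESeq2 called 4 up (0.282% of all). Macrophage markers were higher for 8 of 10, 4 of them at an unadjusted p under 0.05, and summed to 179 and 215 CPM in Control and 275 and 298 CPM in Kansl1 cKO, with none at 0. Of 10 hair placode and germ markers 9 were higher, among them Shh by 0.90 and Sox9 by 0.67 on the log2 scale, while the sum of the list overlapped between the groups. The part of these cells in the values of the Wnt genes was not tested. Wnt6, a ligand of the basal epidermis, had 57.6 and 63.1 CPM in Control and 98.2 and 89.9 CPM in Kansl1 cKO, or 0.64 on the log2 scale (SE 0.155, adjusted p = 0.204).

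Dkk3 had 27.5 and 34.1 CPM in Control and 54.0 and 44.1 CPM in Kansl1 cKO, or 0.67 on the log2 scale (SE 0.190, edgeR's quasi-likelihood adjusted p = 0.223). Wnt16 had 39.2 and 57.9 CPM in Control and 61.1 and 87.0 CPM in Kansl1 cKO, a change of 0.60 on the log2 scale (adjusted p = 0.318). The groups of both genes were apart, though for Wnt16 by a small margin. As shares of the ligand sum, Wnt6 made up 19.3% ± 0.296 in Control and 26.7% ± 3.68 in Kansl1 cKO, and Wnt4 24.7% ± 6.72 and 16.2% ± 1.65. These shares were not tested. Lrp6 had 52.8 and 57.9 CPM in Control and 77.4 and 67.3 CPM in Kansl1 cKO, 0.39 on the log2 scale. Without P0.5 Control replicate 1, the library with muscle genes, the log2 fold changes were 1.46 for Sfrp2, 0.58 for Wnt6, 0.53 for Dkk3 and 0.35 for Wnt16. By role, 8 of 9 Frizzled receptors tested were higher in Kansl1 cKO (median 0.237 on the log2 scale), as were 4 of 5 R-spondin receptors and ligases (median 0.157) and 8 of 13 ligands (median 0.0837). The libraries of the groups overlapped for Fzd1, Fzd2, Fzd4, Fzd5, Fzd7 and Fzd10. Without Kansl1 cKO replicate 1 the median of the whole group was -0.0299, so these directions lean on that library.

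Of the 6 genes called in MOF cKO, Sfrp2 alone had Kansl1 cKO libraries that stood clear of P0.5 Control. Lgr5 was at 13.2 ± 0.871 CPM in P0.5 Control and 15.9 ± 8.13 CPM in Kansl1 cKO, a change of 0.28 on the log2 scale (SE 0.349). Lgr4 was at 80.5 ± 10.4 and 90.3 ± 14.6 CPM, and Lgr6 at 82.3 ± 16.8 and 81.3 ± 17.5 CPM. Wnt2b was at 2.47 ± 0.390 and 2.56 ± 1.04 CPM, and Tcf7 at 17.7 ± 2.37 and 16.4 ± 2.29 CPM. For these 5 genes the Kansl1 cKO and Control libraries overlapped. The 5 pathway lists also had 0 called genes in Kansl1 cKO under edgeR's quasi-likelihood test and under DESeq2, and between 1 and 4 genes each at an unadjusted p under 0.05. Notum, for one, was at 5.14 ± 0.138 CPM in Control and 8.24 ± 1.37 CPM in Kansl1 cKO.

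Whether the effect of MOF loss differed from that of Kansl1 loss was tested as the difference of the log2 fold changes in one fit over all 8 libraries. At an adjusted p of 0.01, 0 of the genes of the group passed edgeR's quasi-likelihood test, where 2.92% of all genes tested did. DESeq2 gave 4 at that threshold, but its share over all genes was not taken, so the 4 cannot be set against a background. At an unadjusted p under 0.05 there were 15 of the 47 tested, 13 of them with the lower effect in MOF cKO, beside 31.2% of all genes tested and 16.4% with the lower effect in MOF cKO. At an adjusted p of 0.05 there were 7, a share close to the 13.8% of all genes. The effect was lower in MOF cKO for each of the 7, where 6.76% of all genes passed in that direction. The difference was -2.46 for Lgr5 (SE 0.474, adjusted p = 0.0132), -4.07 for Wnt2b (SE 0.863, adjusted p = 0.0180) and -0.96 for Lgr4 (SE 0.228, adjusted p = 0.0270), all from edgeR's quasi-likelihood test. It was -1.53 for Tcf7, -1.54 for Wnt16, -1.35 for Dkk3 and -0.77 for Lef1. Since stage and isolation differ between the experiments, a difference of effects cannot be told apart from a difference of stage or tissue preparation.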

How the data were processed

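Deposited were raw counts of reads per gene in 8 libraries, without normalization. The authors prepared directional polyadenylated libraries, used HISAT2 (mm10) for alignment and HTSeq-count for counting, per the study's methods; the submitters' processing notes name TopHat2. The annotation and the strand setting of the counting are not given in the sources used here, so reads of a gene and of an antisense partner cannot be told apart. Entries that name no gene held 21.1% to 26.0% of a library (the lower end at P0.5) and were left out. Exon lengths came from GENCODE M21 (92.9% of symbols and all 53 genes of the group matched) and promoters from RefSeq.

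The analysis used edgeR 4.0.16 in R 4.3.3 (filterByExpr, TMM scaling, quasi-likelihood test, Benjamini-Hochberg over all genes tested) and DESeq2 1.42.0. In simulated counts the edgeR fit of the MOF comparison, on 13661 genes, recovered 59% of the 2-fold changes and 89% of the 4-fold changes. It made 4 false calls, and the Kansl1 fit ran on 12872 genes. Only genes above a set mean count were changed, and each gene was drawn separately. The genes, roles, lists and tests were chosen with earlier results of these data known. Genes were named with values per library if called by either tool, if at an unadjusted p under 0.05 and a fold over 1.5 in Kansl1 cKO, or if highest per length in their role in E16.5 Control; genes of other lists were named if called in MOF cKO. Alternatives were other tests, scalings, filters and thresholds, one fit over all libraries, the replicate number as a block and each library left out. With 2 libraries per group the number of libraries limits the precision.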

Additional observations from a re-analysis of the deposited data

How the results depend on the processing

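In MOF cKO, Lgr5, Wnt2b, Tcf7 and Lgr4 were called down in all 15 alternatives and Sfrp2 was called up in 14. The 5 genes called down became 8 with a likelihood ratio test, 8 with every gene of at least 1 count, 9 at an adjusted p of 0.05, 13 with scaling by library size alone and 6 with any 1 library left out; they became 4, without Lgr6, with DESeq2 size factors in edgeR, with a filter of over 1 CPM in 2 libraries and in one fit over all 8 libraries. The 1 gene called up became 2 with DESeq2, 3 with the likelihood ratio test, 2 with every gene of at least 1 count, and 2 at an adjusted p of 0.05. With a library left out the count stayed at 1, but without Control replicate 1 that gene was Wnt3 in place of Sfrp2. Scaling by library size alone shifted all genes, from a median of -0.02 to -0.32 (log2). Over all genes tested, 1338 were called down in MOF cKO in the main test. They became 2139 with the likelihood ratio test, 2197 under the 1-count filter, 2296 at an adjusted p of 0.05 and 2743 with this scaling. Those called up went from 1395 to 1908, 1837, 1943 and 769 in the same order. Under these settings, larger counts in the group came with larger counts over all genes. With the replicate number as a block, 10 genes of the group were called down and 2 up in MOF cKO. Over all genes these numbers were 2263 and 1903. In Kansl1 cKO 0 genes of the group were called with that block. Same-numbered libraries correlated at 0.206 for MOF and -0.202 for Kansl1, over only 2 pairs that the labels do not tie to litters. Crossed numbers, chosen after seeing the data, gave 0 in Kansl1 cKO, as did all other alternatives there. The difference of effects, with 0 genes at an adjusted p of 0.01, had 4 with DESeq2, 6 with every gene of at least 1 count, 1 with library size alone, 7 at an adjusted p of 0.05, and 0 to 1 with a library left out (1 without P0.5 Control replicate 2 and 1 without Kansl1 cKO replicate 2). Lrp5 and Wls, neither called, changed sign: Lrp5 from 0.028 to -0.039 with upper-quartile factors, -0.28 with library size alone, -0.10 without Control replicate 1 and -0.034 without MOF cKO replicate 2, and Wls from 0.038 to -0.028 and -0.27 under the same scalings, -0.13 without Control replicate 2 and -0.13 without MOF cKO replicate 1. With a library left out Lrp5 reached 0.17 and Wls 0.23 at most. The cause was not tested. Leaving out a library leaves a group with 1, assumed to vary like the other group.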
